A study of Mus musculus with 3 samples.

Results

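Expression of 9 Hox genes was followed in cells of the mouse distal colon and anus before, during and after experimental colitis. The genes were Hoxc6, Hoxc8, Hoxc9 and Hoxc10 of the HoxC cluster, Hoxd10, Hoxd11 and Hoxd13 of the HoxD cluster, Hoxa13 of HoxA and Hoxb13 of HoxB. They were taken by gene symbol as marks of position along the body axis. No cut-off on their measured values was used, but earlier results of these data were known when they were chosen. They are 9 of the 31053 genes in the count table and 9 of its 38 Hox genes with a symbol of their own, and their UMIs (unique molecular identifiers, each standing for 1 captured transcript) numbered 30153, 15063 and 13266 at days 0, 7 and 42.

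Hox genes encode homeodomain transcription factors and lie in 4 chromosomal clusters, in which gene order follows the head-to-tail order of the embryonic regions that express them. Low paralog numbers mark anterior levels, Hoxc6 and Hoxc8 mark the trunk, and the genes of paralog group 13 mark the tail end, where they pattern the hindgut, the anal canal and the urogenital tract. Adult epithelia and fibroblasts keep much of the Hox set of the site they come from, and in skin the set differs from one body site to another.

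The tissue came from C57Bl/6 mice bought at 6 weeks of age, with no allele named in the labels for any group. Distal colon and anus from 5 mice were pooled for each of 3 single-cell libraries. The day 0 group was untreated and histologically normal. The day 7 and day 42 groups both had 3% dextran sulfate sodium (DSS), which damages the colonic epithelium, in their drinking water for 6 days from day 0, and are labelled as severe colitis and as recovered.

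There was 1 library per day and no replicate, so no test between days was possible. Cell types were compared within each library, with no test over the 3 libraries, which differ in treatment, and no p-value is given. Levels are the UMIs of a gene summed over the cells of a group, per 1e6 UMIs of those cells (CPM), with an exact Poisson 95% interval in square brackets where one is given. Ratios of CPM carry an exact conditional binomial 95% interval. All intervals cover counting error only and not variation between mice. Since the libraries count the 3' ends of transcripts, levels are compared between cells and days for the same gene and never between genes.

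The libraries held 11037, 14376 and 11667 cells and 89241138, 151886649 and 72258639 UMIs at days 0, 7 and 42, with median UMIs per cell between 5708 and 6217.5. The authors deposited 29 numbered clusters with 14 cell type names, made from the same expression values, among them 10 keratinocyte clusters, 5 colonocyte clusters (with secretory cells, cluster 15, and enteroendocrine cells, cluster 24) and 1 fibroblast cluster (10). Keratinocytes numbered 3316, 9035 and 7970 by day, colonocytes 4306, 1062 and 1680, and fibroblasts 1436, 316 and 222. In clusters of at least 50 cells a list of 6 keratinocyte markers (Krt5, Krt14, Trp63, Dsg3, Krt6a and Sfn) summed to between 3075 and 36104 CPM in the keratinocyte clusters, and to at most 2936 CPM in the colonocyte clusters apart from cluster 22, at 10172 CPM. That cluster, present at day 7, was led by the neutrophil genes S100a9 and S100a8 and reached 11089 CPM of 3 neutrophil markers, above its 7031 CPM of colonocyte markers, so colonocyte values are also given for cluster 2 alone. The libraries shared 139 cell barcodes, 44 between days 0 and 7, 40 between days 0 and 42 and 55 between days 7 and 42, and the cells with a shared barcode had the same cluster number in 1, 1 and 3 of these. Leaving out the 278 cells with such a barcode moved no count of members past the fold by over 1.5 times.

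The 4 HoxC members lie side by side on chromosome 15 (GRCm38, + strand, GENCODE M21), with Hoxc10 at 102966796-102971893, Hoxc9 at 102976439-102985099, Hoxc8 at 102990607-102994111 and Hoxc6 at 102998257-103011881. Hoxd13 (74668310-74671599), Hoxd11 (74679557-74687016) and Hoxd10 (74691924-74695105) lie in that order on chromosome 2, on the + strand, with Hoxd12 between Hoxd13 and Hoxd11. Hoxa13 is on chromosome 6 at 52257694-52260880 (- strand) and Hoxb13 on chromosome 11 at 96194316-96197447 (+ strand). Exons of Hoxc10, Hoxd10 and Hoxd11 overlap those of another gene on the same strand over 8.70%, 5.73% and 10.8% of their bases, in no case within the last 500 bases, near the 3' end that is counted. In the count table the members carry the identifiers ENSMUSG00000001661 (Hoxc6), ENSMUSG00000001657 (Hoxc8), ENSMUSG00000036139 (Hoxc9), ENSMUSG00000022484 (Hoxc10), ENSMUSG00000050368 (Hoxd10), ENSMUSG00000042499 (Hoxd11), ENSMUSG00000038203 (Hoxa13), ENSMUSG00000049604 (Hoxb13) and ENSMUSG00000001819 (Hoxd13).

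Hoxd11 and Hoxd13 had the most alike levels of any pair of HoxD members, with a Pearson r of 0.903 for log2(CPM + 10) over 60 clusters and days of at least 50 cells. This r describes units that share libraries and is no test. For that reason the 250 bases before their RefSeq starts are shown (GRCm38.p6, + strand, chr2:74667975-74668224 for Hoxd13 and chr2:74679308-74679557 for the first of 2 listed starts of Hoxd11). Capitals mark matches, on either strand, to TTTATG or TTTACG, forms of the binding motif of Cdx and posterior Hox proteins, or to the TATA box letters TATAAA.
Hoxd13: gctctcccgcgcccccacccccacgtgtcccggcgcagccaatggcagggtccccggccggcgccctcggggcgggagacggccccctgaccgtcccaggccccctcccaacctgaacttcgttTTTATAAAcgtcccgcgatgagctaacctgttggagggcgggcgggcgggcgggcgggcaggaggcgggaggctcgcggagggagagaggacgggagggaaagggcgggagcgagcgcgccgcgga
Hoxd11: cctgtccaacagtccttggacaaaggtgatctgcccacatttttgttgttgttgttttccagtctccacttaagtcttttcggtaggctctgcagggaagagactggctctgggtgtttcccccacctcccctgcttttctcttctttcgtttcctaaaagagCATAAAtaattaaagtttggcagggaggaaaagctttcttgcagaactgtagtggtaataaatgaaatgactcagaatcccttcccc
The Hoxd13 window is 74.4% G and C, at the 95.4th percentile of RefSeq promoters, and its capitals are TATAAA with an overlapping match on the other strand. The Hoxd11 window is 44.8% G and C, and its capitals are TTTATG read on the other strand. Of all 32851 promoter windows of the same length, 10.8% hold TTTATG, 2.61% TTTACG and 12.4% TATAAA, so these are common letters, and a match is neither a binding site nor a cause of a level. The windows of Hoxd10, Hoxa13 and the other start of Hoxd11 hold none of these letters, which says nothing about any factor there. The remaining members had no sequence entry.

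In the untreated tissue, the HoxC members and the other 5 members were highest in different keratinocyte clusters. Hoxc6, Hoxc8 and Hoxc9 were highest in clusters 9 and 17 and next in clusters 4 and 8, while Hoxd10, Hoxd11, Hoxb13 and Hoxd13 were highest in clusters 1, 3 and 5 and Hoxa13 in clusters 3 and 1. By the genes that led each cluster among keratinocytes, cluster 9 was marked by H19, Smoc2 and Igfbp5, cluster 17 by Cxcl14, Postn and Tchh, cluster 4 by Krt10, Krt1 and Serpinb3a (epidermal differentiation), cluster 8 by Cst6, Defb6 and Alox12e, cluster 1 by S100a4, Igfbp7 and Hpgd, cluster 3 by the cell division genes Ube2c, Birc5 and Cdc20, and cluster 5 by Psca and Ltf. Both sets of clusters were formed after the levels were seen.

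Clusters 4, 8, 9 and 17 made up 67.4% of keratinocytes at day 0, 38.7% at day 7 and 19.3% at day 42. Of the keratinocyte UMIs of Hoxc8 they held 98.6%, 92.5% and 89.2% at the same days, and the shares of Hoxc6 (98.1%, 92.7% and 89.1%) and Hoxc9 (97.3%, 88.8% and 90.1%) were alike. Clusters 1, 3 and 5 made up 24.1%, 29.97% and 77.4% of keratinocytes. They held 70.5%, 86.2% and 94.5% of the Hoxd11 UMIs of keratinocytes, 68.3%, 88.4% and 97.3% of those of Hoxb13, and 73.3%, 90.6% and 96.1% of those of Hoxd13. By all UMIs instead of cells, the first set held 64.8%, 33.7% and 14.7% of keratinocyte UMIs and the second 27.3%, 51.4% and 83.9%. In every library the share of each of these 3 HoxC genes in the first set, and of the other 3 genes in the second, was above that set's share of cells and of UMIs.

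**Figure D1:**
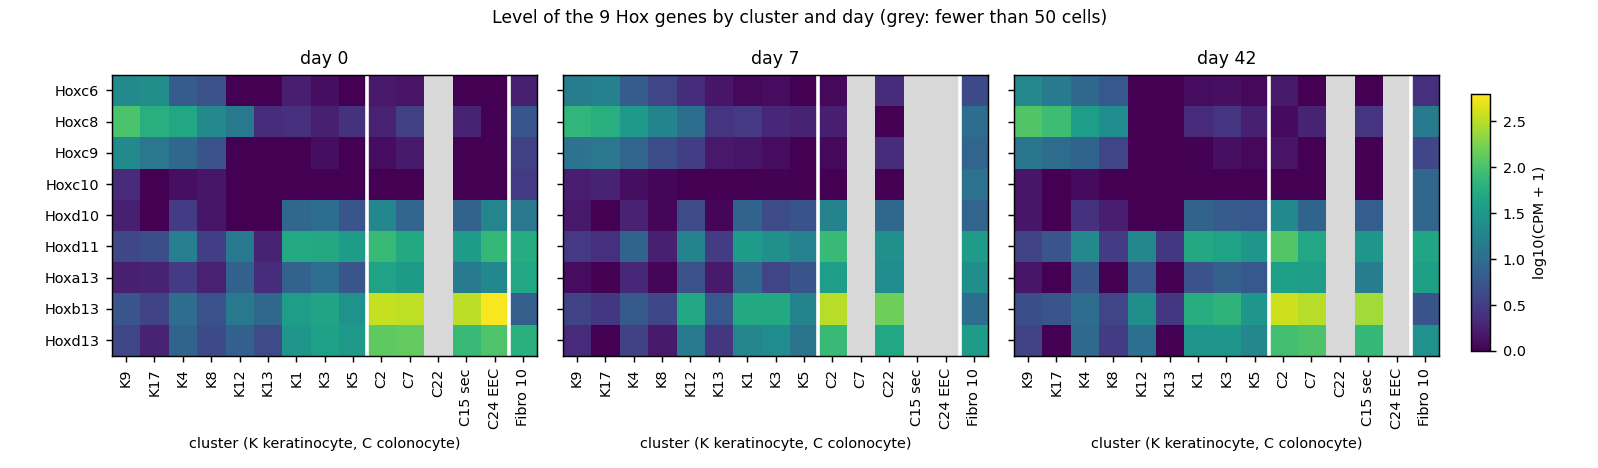
Levels of the 9 members (rows) in the keratinocyte (K), colonocyte (C) and fibroblast clusters at each day (columns), as log10(CPM + 1) by colour; C15 is secretory, C24 enteroendocrine, and grey marks fewer than 50 cells. Hoxc6, Hoxc8 and Hoxc9 are high in K9 and K17, where Hoxb13 and Hoxd13 are low.

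Hoxc8, which patterns the thoracic skeleton and trunk neurons, had the widest range. At day 0 it stood at 101 CPM [92.6 to 110.2] in cluster 9, 57.7 CPM [44.4 to 73.9] in cluster 17, 47.0 CPM [42.8 to 51.6] in cluster 4 and 19.8 CPM [16.4 to 23.7] in cluster 8. In clusters 1, 3, 5 and 13 it stood at 1.47, 0.780, 1.495 and 1.27 CPM, and the intervals of these 4 overlapped. Clusters 17 and 4, next to each other in that order, could not be separated by their intervals, while cluster 9 lay above both and cluster 8 below both. The same order held at day 7, with 68.3 CPM in cluster 9, 56.1 in cluster 17, 32.0 in cluster 4 and 17.2 in cluster 8, and at day 42, with 107, 84.1, 35.7 and 21.8 CPM. A Hoxc8 UMI was found in 48.7% of cluster 9 cells at day 0 [44.6 to 52.75, Clopper-Pearson] and in 0 of 315 T cells, neutrophils and macrophages, which allows a share of up to 0.952% of such cells with a UMI at a median depth of 2293 UMIs.

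Hoxc6, its neighbour toward the anterior end of the cluster, stood at 20.97, 13.9 and 19.8 CPM in cluster 9 at days 0, 7 and 42, and at 22.9, 15.8 and 13.3 CPM in cluster 17. Clusters 4 and 8 were lower, at 5.58 and 3.90 CPM at day 0. Hoxc9, a gene of the lower thoracic level, stood at 20.2, 10.6 and 11.5 CPM in cluster 9 and at 11.9, 11.8 and 8.86 CPM in cluster 17, so cluster 17 was not below cluster 9 at day 7. Hoxc10, which patterns lumbar levels and the hindlimb, was nearly absent from keratinocytes, with at most 1.18 CPM (6 UMIs) in a cluster. Of its 70 UMIs in all cells, 52.9% lay in fibroblasts and none in colonocytes.

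Hoxd11, a gene of sacral levels, the forearm and the kidney, was at 49.96 CPM [43.3 to 57.3] in cluster 1, 48.1 CPM [41.4 to 55.5] in cluster 3 and 34.4 CPM [25.2 to 45.9] in cluster 5 at day 0. These intervals overlapped in part, and cluster 4 came next at 14.99 CPM [12.7 to 17.6]. Clusters 9 and 8 stood at 2.94 and 2.27 CPM, below all of these. At day 7 the levels in clusters 1, 3 and 5 were 34.2, 24.7 and 16.6 CPM, and at day 42 they were 47.4, 39.8 and 29.4 CPM. Hoxd10, the next gene in the cluster, was highest in the same clusters, with 7.59, 9.36 and 4.49 CPM in clusters 1, 3 and 5 at day 0.

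Hoxb13, which is known from the hindgut, tail tip and prostate, was at 41.9 CPM [35.6 to 48.8] in cluster 3, 35.3 CPM [29.7 to 41.5] in cluster 1 and 26.2 CPM [18.2 to 36.4] in cluster 5 at day 0. Clusters 4, 9, 8 and 17 lay below these, at 8.99, 4.51, 4.06 and 2.75 CPM. Hoxd13, a gene needed for digits, external genitalia and anal sphincters, was at 38.99 CPM [33.0 to 45.8] in cluster 3, 31.4 CPM in cluster 5 and 29.1 CPM [24.1 to 34.9] in cluster 1, with 7.03 CPM in cluster 4 and 2.94 in cluster 9. Hoxa13, which acts with Hoxd13 in the end of the gut and the limb, stood at 9.62, 6.61 and 4.49 CPM in clusters 3, 1 and 5, with cluster 12 at 6.34 CPM on 1 UMI. For Hoxb13 and Hoxd13 the intervals of clusters 1, 3 and 5 overlapped each other and lay above those of clusters 4 and 9.

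**Figure D2:**
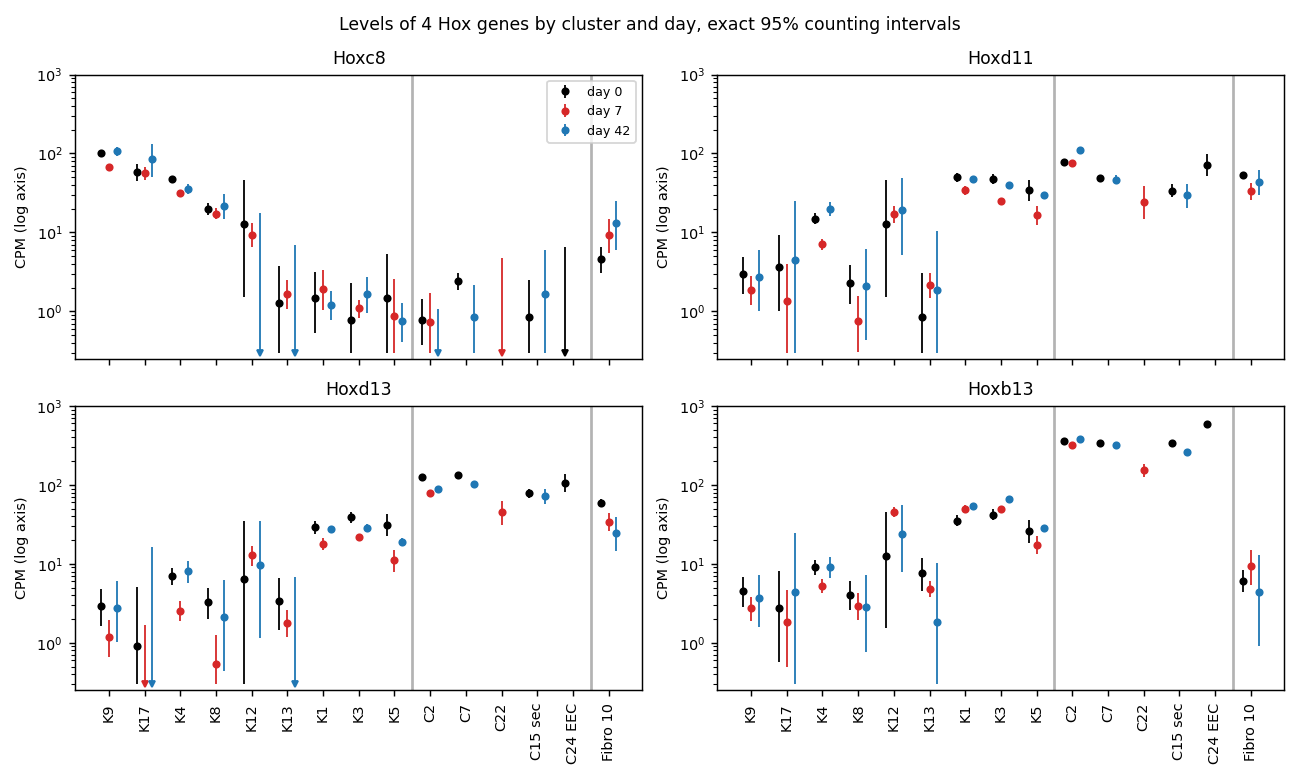
CPM of Hoxc8, Hoxd11, Hoxb13 and Hoxd13 (log axis) in each keratinocyte, colonocyte and fibroblast cluster, with 1 point per day and bars for the exact Poisson 95% interval; triangles at the lower edge mark levels under 0.3 CPM. Hoxc8 reaches 101 CPM in cluster 9 at day 0, where Hoxd11 stands at 2.94 CPM.

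Between the highest and the lowest keratinocyte cluster, 6 of the 8 members with at least 5 CPM in some cluster (all but Hoxc10) differed by a log2 ratio of at least 1 (10 CPM added to both sides) at day 0, against 63.6% of the 11967 genes with at least 5 CPM on either side. The count was 6 at day 7 as well, against 45.7% of genes, and 6 at day 42, against 61.7%. At days 0 and 42 the share of members is near the background and at day 7 it is above it, and that the members differed between some pair of keratinocyte clusters is not read as a result about them. The clusters in which each member was high are the description. The log2 ratio between highest and lowest at day 0 was 3.37 for Hoxc8, 2.47 for Hoxd11, 2.17 for Hoxd13 and 2.02 for Hoxb13, and it was 0.16 for Hoxc10.

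Clusters 9 and 1, and clusters 4 and 5, pairs chosen after their values were seen, were compared along whole Hox clusters. In the first pair at day 0, all 5 HoxC genes with at least 5 CPM were higher in cluster 9, against 2.62% of 10079 genes. They were Hoxc4 (36.7 CPM against no UMI, which allows up to 0.735 CPM), Hoxc5 (13.7 against 0.245 CPM), Hoxc6 (20.97 against 0.735 CPM), Hoxc8 (101 against 1.47 CPM) and Hoxc9 (20.2 CPM against no UMI). These 5 reached 5 CPM through cluster 9 alone, so they had to be higher there, and their count is a description from which nothing is read. Lower in cluster 9, against 1.4% of genes, were Hoxd11 (log2 ratio -2.21), Hoxd13 (-1.60), Hoxb13 (-1.64) and Hoxa10 (-1.09), which are 4 of the 17 HoxA, HoxB and HoxD genes tested. Hoxd11, Hoxd13 and Hoxb13 stood at 2.94, 2.94 and 4.51 CPM in cluster 9. They reached 5 CPM through cluster 1 alone and could only be lower in cluster 9, so this count too is a description. Hoxa7 (87.2 against 46.3 CPM) and Hoxa9 (54.5 against 42.9 CPM), trunk genes of HoxA, did not reach the fold at day 0, but Hoxa7 did at day 7 (1.07) and day 42 (1.27). At day 7 the HoxC genes past the fold were 3 of 5, against 2.05% of genes, with Hoxc5 (0.93) and Hoxc9 (0.98) short of it, and at day 42 they were 5 of 5, against 3.34%. The same 4 genes were lower at both later days, against 1.49% and 4.63% of genes. At both later days the HoxC genes tested were under 5 CPM in cluster 1, and these 4 genes were under 5 CPM in cluster 9. Nothing is read from these counts either.

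Between clusters 4 and 5 at day 0, the HoxC genes higher in cluster 4 were 2 of 5, Hoxc8 (log2 ratio 2.31) and Hoxc4 (1.35), against 4.26% of genes, and Hoxc9 (0.83), Hoxc5 (0.68) and Hoxc6 (0.64) were short of the fold. Lower in cluster 4 were Hoxd13 (-1.28) and Hoxa10 (-1.03), against 7.15% of genes, with Hoxb13 (-0.93) and Hoxd11 (-0.83) short of it. At day 7 Hoxc8 (1.95) was the 1 HoxC gene of 4 past the fold, against 3.46% of genes, and no HoxA, HoxB or HoxD gene was lower, against 6.63%. At day 42 Hoxc8 (2.09) was again 1 of 4, against 3.08%, and Hoxb13 (-1.003) was lower, against 6.6%. At each day the HoxC genes tested were under 5 CPM in cluster 5. They reached 5 CPM through cluster 4 alone and could only be higher there, so nothing is read from their counts.

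**Figure D3:**
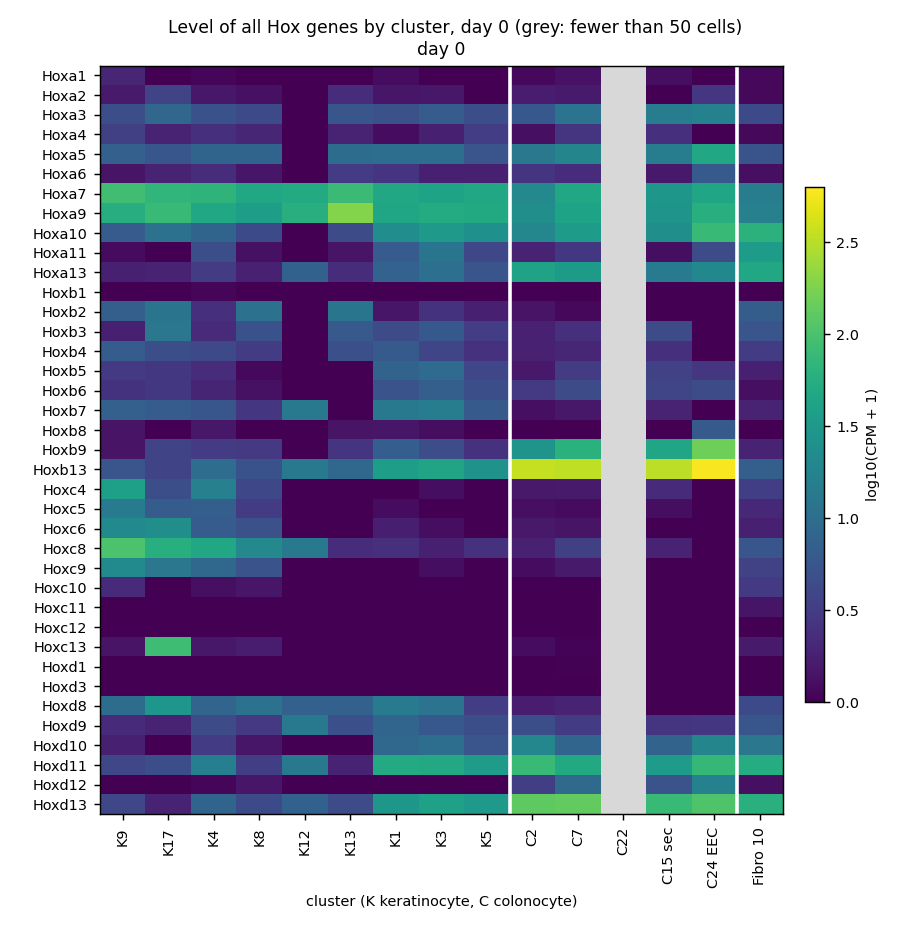
Levels of the Hox genes of the table at day 0 in the keratinocyte, colonocyte and fibroblast clusters, as log10(CPM + 1) by colour, in their order by cluster and paralog number. In K9 the signal runs over Hoxc4 to Hoxc9, and in K1 the same genes are dark (little signal) while Hoxd11 and Hoxb13 are present.

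Cluster 4, the Krt10-led cluster, held both kinds of member, so its cells were looked at one by one. At day 0, 270 of its 697 cells had a UMI of a HoxC member and 190 had a UMI of Hoxd10, Hoxd11, Hoxa13, Hoxb13 or Hoxd13, but only 25 had both. If detection of the kinds were unrelated, the product of the shares would give 10.6% of cells with both, and 3.59% had both. The other 5 members were detected in 9.26% of cells with a HoxC UMI and in 38.6% of cells without, although the former were deeper (median 14739.5 against 12026 UMIs). The figures were 4.55% and 21.7% at day 7 (1315 cells), and 5.70% and 25.3% at day 42 (656 cells). In cluster 9 the other 5 members were near their level in immune cells. The figures there were 6.23% and 5.35% at day 0, 4.41% and 8.39% at day 7, and 2.09% and 4.91% at day 42. In cluster 4 at day 0 Hoxd11 (14.99 CPM) lay above the interval of immune cells, while Hoxd10, Hoxa13, Hoxb13 and Hoxd13 lay within theirs.

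The ratio of observed to product in cluster 4 was 0.340, 0.296 and 0.277 at days 0, 7 and 42. It was 0.321, 0.295 and 0.2002 without the 5% of cells with the highest Scrublet scores, and 0.319, 0.293 and 0.275 in cells that passed a filter on UMIs, genes and mitochondrial share. With each cell thinned to 1000 UMIs too few cells kept a UMI to tell, with 0, 1 and 0 cells holding both against 0.796, 1.08 and 1.48 from the product. A Hoxb13 UMI was found in 1.90% of T cells, neutrophils and macrophages at day 0, cells that should lack the gene, at a median depth of 2293 UMIs.

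The keratins of these cells differed too. Cluster 4 cells with only HoxC UMIs had 120 CPM of Krt13, a keratin of mucosal squamous lining, at day 0, and cells with only UMIs of the other 5 members had 4279 CPM. The pair of values was 141 and 5436 CPM at day 7 and 67.8 and 3185 CPM at day 42. Krt10, a keratin of cornifying epidermis, went the other way, at 12490 against 7603 CPM at day 0, 11032 against 6225 at day 7 and 9558 against 6869 at day 42. Krt1 was at 7949 against 4673 CPM and the mucosal keratin Krt4 at 916 against 2344 CPM at day 0. Both kept these directions at days 7 and 42. The epidermal keratin Krt2 was at 358 against 6.43 CPM at day 0, but at 1.63 against 67.0 CPM at day 7 and 134 against 581 CPM at day 42, so it did not keep one direction. Neither did Lor and Krt77, of the same epidermal marker list. Lor was at 43.8 against 3.00 CPM at day 0 and 16.7 against 5.01 at day 7, but 17.4 against 77.4 at day 42. Krt77 was at 371 against 227 CPM at day 0. At days 7 and 42 it was at 3.89 against 4.65 and 14.7 against 22.6 CPM, with overlapping intervals. These cells were split by their own detected UMIs, and the values are a description.

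**Figure D4:**
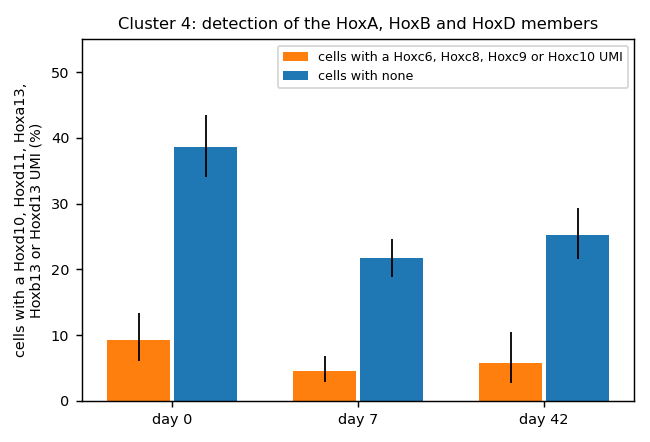
Share of cluster 4 cells with a UMI of Hoxd10, Hoxd11, Hoxa13, Hoxb13 or Hoxd13 at each day, for cells with and without a UMI of a HoxC member; the lines on the bars are exact Clopper-Pearson 95% intervals. At day 0 the shares are 9.26% and 38.6%, and the intervals do not overlap at any day.

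The colonocytes, the columnar lining, carried the tail-end genes at far higher levels. At days 0, 7 and 42 Hoxb13 stood at 345 CPM [340 to 351], 293 CPM [282 to 305] and 341 CPM [330 to 352] in colonocytes, and at 14.6 CPM [13.4 to 16.0], 27.7 CPM [26.8 to 28.6] and 40.2 CPM [38.6 to 41.8] in keratinocytes. Colonocytes were higher at every day with no overlap, and the ratio was 23.6 [21.5 to 25.8] at day 0, 10.6 [10.1 to 11.1] at day 7 and 8.48 at day 42. Hoxd13 stood at 125, 72.5 and 92.3 CPM in colonocytes against 12.5, 11.99 and 21.4 CPM in keratinocytes. Hoxa13 stood at 32.8, 34.1 and 33.7 CPM in colonocytes against 3.06, 2.13 and 4.49 CPM. Hoxd11 was closer, at 56.3, 65.6 and 74.8 CPM against 18.1, 15.1 and 34.6 CPM, as was Hoxd10, at 10.7, 14.7 and 13.2 CPM against 2.97, 2.25 and 5.02 CPM.

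The HoxC members lay on the other side. Hoxc8 stood at 34.5, 14.8 and 8.74 CPM in keratinocytes and at 1.78, 0.561 and 0.626 CPM in colonocytes, a ratio of 19.4 [15.4 to 24.7] at day 0, 26.4 [11.3 to 81.5] at day 7 and 13.96 [6.72 to 34.9] at day 42. Hoxc6 (6.29 against 0.410 CPM) and Hoxc9 (6.56 against 0.433 CPM) had the same direction at day 0, with log2 ratios of 0.65 and 0.67 after 10 CPM were added, short of the fold. Hoxc10 had 12 UMIs in keratinocytes at day 0 (0.353 CPM) and none in colonocytes at any day, which allows up to 0.0684 CPM there at day 0, so no fold is given.

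Past a log2 ratio of 1 at day 0, with 8 members tested, 1 member was higher in keratinocytes (Hoxc8, 1.92), against 7.18% of genes, and 4 were lower (Hoxb13, -3.85; Hoxd13, -2.59; Hoxa13, -1.71; Hoxd11, -1.24), against 9.84%. At day 7, with 6 tested, 1 was higher, against 10.2% of genes, and 5 were lower, against 11.8%, with Hoxd10 at -1.01 added. At day 42, again with 6 tested, none was higher, against 6.62%, with Hoxc8 at 0.82, and 3 were lower, against 10.2%, with Hoxd11 at -0.93. The share of members that were lower lay above the background at each day, and the single higher member did not stand out from it. The filter fixed part of these counts. Hoxa13 at each day, and Hoxd10 at day 7, were under 5 CPM in keratinocytes and could only be lower there. Hoxc8 was under 5 CPM in colonocytes and could only be higher in keratinocytes. Hoxb13, Hoxd13 and Hoxd11 were over 5 CPM in both classes at each day. The members' median log2 ratio was -0.96 at day 0, where that of all genes was near 0, and -1.73 at day 7, where that of all genes was 0.15.

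Among the colonocyte clusters the tail-end genes were high throughout. Hoxb13 at day 0 was at 356 CPM in cluster 2, led by Car4 and Saa1, 336 CPM in cluster 7, led by Defb45, Stmn1 and Ube2c, and 335 CPM in the Muc2-positive secretory cluster 15, and the enteroendocrine cluster 24 stood above them at 587 CPM [526 to 654]. Hoxd13 was at 126 and 132 CPM in clusters 2 and 7, and lower in the secretory cluster, at 78.0 CPM [69.0 to 87.8]. Hoxd11 was at 77.9 CPM [73.1 to 82.9] in cluster 2 against 48.7 CPM [46.1 to 51.4] in cluster 7 and 33.9 CPM [28.0 to 40.5] in cluster 15. Hoxa13 followed with 39.8, 32.3 and 13.4 CPM in these 3 clusters, and Hoxd10 with 18.8 CPM in cluster 2 and 7.28 CPM in cluster 7. Thus Hoxb13 at day 0 was near level across clusters 2, 7 and 15, while the HoxD members and Hoxa13 were highest in cluster 2 or 7. At day 42 Hoxb13 stood further apart, at 384, 316 and 258 CPM in clusters 2, 7 and 15. Cluster 22 at day 7 had 152 CPM of Hoxb13 and 45.2 CPM of Hoxd13, beside the neutrophil genes already described.

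The proportions between the members in keratinocyte clusters 1, 3, 4 and 5 were not those of colonocytes. They are given as ratios of UMIs of 2 genes, used only to compare cells with each other. For each Hoxb13 UMI there were 0.219 Hoxd11 UMIs in colonocyte cluster 2 and 0.145 in cluster 7 at day 0, against 1.42 [1.14 to 1.77] in keratinocyte cluster 1, 1.15 [0.925 to 1.43] in cluster 3, 1.67 in cluster 4 and 1.31 [0.828 to 2.10] in cluster 5. In keratinocyte clusters with few UMIs of these genes the intervals reached the colonocyte values, as at 0.111 [0.0125 to 0.464] in cluster 13 at day 0 and 0.259 [0.0953 to 0.610] in cluster 8 at day 7. Hoxb13 UMIs per 1000 UMIs of the colonocyte marker list were 31.8, 62.5, 72.9 and 178 in colonocyte clusters 2, 7, 15 and 24 at day 0, a range that held keratinocyte clusters 1 (136) and 3 (85.3), and 22.5 in keratinocyte cluster 5, which had 1164 CPM of that list. Background at low level was still present, since T cells, neutrophils and macrophages showed 6.31, 2.39 and 7.50 CPM of Hoxb13 at days 0, 7 and 42, so Hoxb13 at or under such levels, as in keratinocyte clusters 8, 9 and 17, is not read as expression.

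Fibroblasts (cluster 10), the connective tissue cells under both linings, had HoxD and HoxA members with little Hoxb13. At day 0 Hoxd13 stood at 59.5 CPM, Hoxd11 at 52.8, Hoxa13 at 45.4 and Hoxd10 at 11.9 CPM, while Hoxb13 at 6.12 CPM [4.37 to 8.33] was no higher than in immune cells. Against keratinocytes, 3 members were higher past the fold, Hoxa13 (2.09 on the log2 scale), Hoxd13 (1.63) and Hoxd11 (1.16), against 15.9% of genes, and 1 was lower, Hoxc8 (-1.61), against 7.76%. With 8 members tested, the 3 higher ones are a larger share than that background, and the 1 lower member is near it. Hoxa13 was under 5 CPM in keratinocytes, and Hoxc8 was under 5 CPM in fibroblasts. The filter thus fixed the direction of both. Hoxa13 in fibroblasts was 14.9 times its keratinocyte level [11.8 to 18.8], and Hoxc8 was at 0.133 of it. At days 7 and 42 Hoxa13 kept the direction, at 1.47 and 1.73 on the log2 scale, while Hoxd13 (0.997 and 0.15) and Hoxd11 (0.79 and 0.27) were short of the fold. Past it too were Hoxc10 at day 7, higher at 1.007 on 19 fibroblast UMIs, and Hoxb13 at day 42, lower at -1.80 on 3. The share of all genes past the fold was not taken at days 7 and 42, so these calls are a description. Hoxa13 and Hoxc10 were under 5 CPM in keratinocytes, and Hoxb13 in fibroblasts, so the filter fixed their directions. Hoxc8 in fibroblasts was at 0.626 [0.364 to 1.01] and 1.503 [0.683 to 2.88] of its keratinocyte level at those days, with intervals that hold 1. The muscle-like cells (cluster 20), led by Acta2, Tagln and Myh11, had a like set at day 0, with Hoxa13 at 73.4 CPM [58.1 to 91.4], Hoxd11 at 53.9 and Hoxd13 at 50.1 CPM. Lymphatic cells had the highest Hoxd10, at 29.4, 17.8 and 28.8 CPM, on 6, 14 and 5 UMIs.

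The change between days was then compared in each class, with the untreated library as the shared reference of both later days. In keratinocytes the class levels of the HoxC members were lower after DSS and those of Hoxb13 higher. Hoxc8 was at 0.430 [0.400 to 0.463] of its day 0 level at day 7 and 0.254 [0.228 to 0.282] at day 42, Hoxc6 at 0.457 and 0.276, and Hoxc9 at 0.444 and 0.186. Hoxb13 was at 1.89 [1.72 to 2.08] and 2.74 [2.49 to 3.03] times its day 0 level. Hoxd11, Hoxd13, Hoxd10 and Hoxa13 were at 0.830, 0.961, 0.758 and 0.696 of it at day 7 and at 1.91, 1.72, 1.69 and 1.47 times it at day 42. At day 7 none of the 6 members tested was past a log2 ratio of 1, against 2.12% of genes, and at day 42 the count was 2 of 7, against 4.3%, namely Hoxc8 (-1.25) and Hoxb13 (1.03).

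The mix of clusters differed between the days as well, and its part in these class values was not tested. With equal weight given to each keratinocyte cluster, no member was past the fold at day 42, and Hoxc8 turned from -1.25 to 0.04 and Hoxb13 went from 1.03 to 0.28. Small clusters weigh as much as large ones there, among them cluster 12 (51 cells at day 0) and cluster 17 (63 cells at day 42). Within cluster 9, Hoxc8 at day 42 was at 1.06 [0.907 to 1.24] of its day 0 level. Within cluster 4 it was at 0.759 [0.632 to 0.907]. Hoxb13 was still higher at day 42 in clusters 1 and 3, at 1.54 [1.30 to 1.85] and 1.57 [1.31 to 1.87] times day 0, and not in clusters 4 and 5, at 1.01 [0.684 to 1.47] and 1.08 [0.766 to 1.57].

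**Figure D5:**
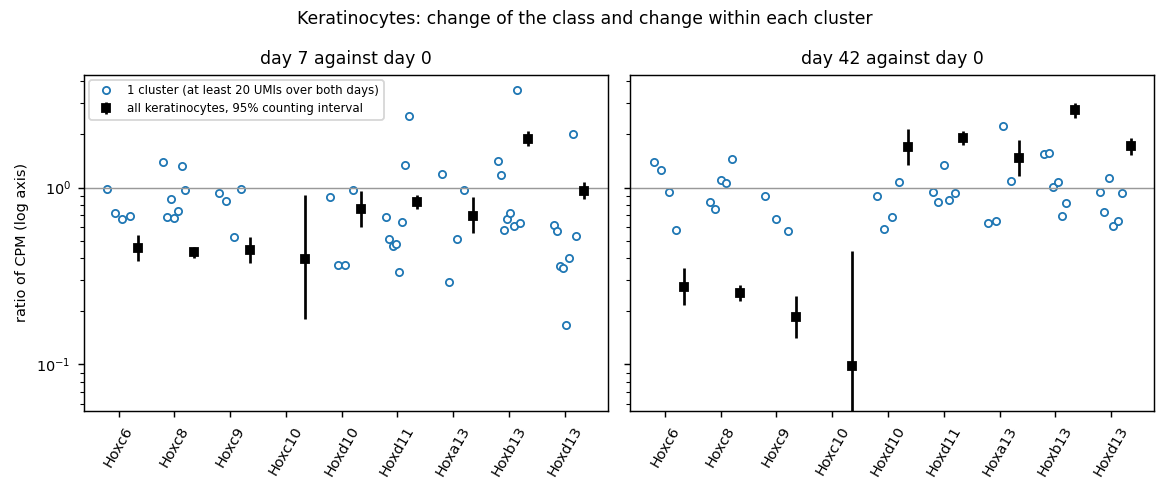
CPM of each member at day 7 and at day 42 relative to day 0 in keratinocytes (log axis); squares are all keratinocytes with the 95% counting interval, and open circles are single clusters with at least 20 UMIs over both days. For Hoxc8 at day 42 the square lies at 0.254 and the circle of cluster 9 at 1.06.

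Within clusters 1, 3, 4 and 5, Hoxd13 and Hoxd11 were lower at day 7 than at day 0, with every interval below 1. Of the keratinocyte clusters with at least 20 UMIs, Hoxd13 was lower in 7 of 8 (median ratio 0.468), but 3 of these were within the interval of immune cells at both days, and of the 5 clusters above it on either day 4 were lower. It was at 0.613 [0.471 to 0.796] in cluster 1, 0.567 [0.479 to 0.677] in cluster 3, 0.351 [0.220 to 0.558] in cluster 5 and 0.359 [0.243 to 0.528] in cluster 4. Hoxd11 was lower in 6 of 8 clusters (median 0.577) and in 4 of the 6 above the interval of immune cells, at 0.685, 0.514, 0.481 and 0.471 in clusters 1, 3, 5 and 4. In immune cells both genes stood at 2.10 CPM [0.255 to 7.60] at day 0 and 0.853 CPM [0.277 to 1.99] at day 7, and Hoxd13 in cluster 4, at 7.03 CPM, lay within that day 0 interval. Hoxd10 was lower in 4 of 4 (median 0.624), with the interval below 1 in 2. From day 7 to day 42, among clusters above immune cells on either day, Hoxd11 was higher in 5 of 6 and Hoxd13 in 4 of 5, in both cases with the interval above 1 in 4. Hoxc6 and Hoxc9 were lower at day 7 in 4 of 4 clusters each (medians 0.706 and 0.891), but with the interval below 1 in 1 cluster each. Hoxc8 was lower in 5 of 7 (median 0.869) and in 5 of the 5 above immune cells on either day (median 0.740). Its interval lay below 1 in 2 of these, and cluster 12 among them had 2 UMIs at day 0. Hoxb13 was lower at day 7 in 5 of 8 clusters (median 0.693), but in 3 of the 6 above immune cells on either day (median 0.922). Where it was high, it was above its day 0 level in cluster 1, at 1.41 [1.16 to 1.73], and in cluster 3, at 1.18 [1.004 to 1.39], while cluster 5, at 0.666 [0.432 to 1.04], had an interval that held 1. Its interval lay below 1 in cluster 4, at 0.580 [0.430 to 0.782], from 8.99 CPM, within the interval of immune cells at day 0 [2.32 to 13.7 CPM], to 5.21 CPM, above theirs at day 7 [1.31 to 4.01 CPM].

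The number of Hoxd11 UMIs for each Hoxb13 UMI, which no scaling to library totals can move, was 1.42 [1.14 to 1.77], 0.689 [0.580 to 0.817] and 0.870 [0.798 to 0.949] in cluster 1 at days 0, 7 and 42, and 1.15 [0.925 to 1.43], 0.502 [0.470 to 0.535] and 0.608 [0.534 to 0.691] in cluster 3. In both clusters the untreated library was highest and its interval lay above those of the other days. This did not hold in cluster 5, at 1.31, 0.95 and 1.04, or in cluster 4, at 1.67, 1.35 and 2.21, where the intervals of the 3 days overlapped. In colonocyte cluster 2 the ratio was 0.219, 0.240 and 0.292.

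Neutrophil transcripts moved with day 7 as well. The 3 neutrophil markers summed to between 237 and 5675 CPM in the keratinocyte clusters at day 7, against at most 203 CPM at day 0 and 493 CPM at day 42, and their part in the day 7 values was not tested. Cluster 12 also changed its content, with 105093 CPM of hair follicle markers at day 0 (51 cells), 104 CPM at day 7 (1668 cells) and 5 CPM at day 42, so its Hoxb13 levels of 12.7, 45.4 and 23.9 CPM compare unlike cells. Clusters 1, 3 and 5 kept their members' order above cluster 9 for Hoxd11, Hoxb13 and Hoxd13 at all 3 days.

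The HoxC members differed by day within some clusters too. Hoxc8 in cluster 9 stood at 0.676 [0.605 to 0.755] of day 0 at day 7 and in cluster 4 at 0.681 [0.602 to 0.770], while cluster 17, at 0.971 [0.712 to 1.34], and cluster 8, at 0.869 [0.682 to 1.11], had intervals that held 1. Hoxc9 in cluster 9 was at 0.525 [0.403 to 0.685] at day 7 and 0.569 [0.352 to 0.888] at day 42. Hoxc6 in cluster 9 was at 0.662 at day 7, with its interval below 1, and 0.942 [0.645 to 1.35] at day 42. For each Hoxc6 UMI, cluster 9 had 4.82, 4.92 and 5.44 Hoxc8 UMIs by day, with overlapping intervals, and cluster 4 had 8.43 [6.34 to 11.4], 5.85 [4.74 to 7.27] and 4.57 [3.18 to 6.71]. For each Hoxc9 UMI, cluster 9 had 5.01 [4.05 to 6.25], 6.45 [5.38 to 7.79] and 9.36 [6.18 to 14.8] Hoxc8 UMIs.

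In colonocytes none of the 5 members tested was past the fold at day 7, against 5.4% of genes, or at day 42, against 1.53%. Hoxd13 showed the clearest difference, at 0.579 [0.533 to 0.628] of its day 0 level at day 7 and 0.737 [0.689 to 0.788] at day 42. In cluster 2 alone it was at 0.621 [0.562 to 0.685] and 0.698 [0.627 to 0.775], and in cluster 7, which had too few cells at day 7, at 0.783 [0.711 to 0.860] at day 42. Hoxd11 of the same cluster was not lower in colonocyte cluster 2, at 0.973 [0.873 to 1.08] at day 7 and 1.44 [1.29 to 1.60] at day 42. The number of Hoxd11 UMIs for each Hoxd13 UMI in cluster 2 was accordingly 0.620 [0.572 to 0.672], 0.972 [0.859 to 1.10] and 1.28 [1.13 to 1.45] at days 0, 7 and 42, with no overlap between the days. In keratinocyte cluster 1 the same ratio was 1.71, 1.92 and 1.71, and in the secretory cluster it was 0.434 and 0.407 at days 0 and 42. Hoxb13 in cluster 2 was near its day 0 level, at 0.888 [0.843 to 0.935] and 1.08 [1.02 to 1.14].

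In fibroblasts none of 8 members tested was past the fold at day 7, against 4.9% of genes, and none of 7 at day 42, against 2.63%, with 316 and 222 cells. Hoxd13 at day 42 was just short of it, at -0.998, and the count at day 42 changed under other settings, as given below. Hoxd13 stood at 59.5, 33.9 and 24.8 CPM by day, at 0.569 [0.428 to 0.746] and 0.417 [0.240 to 0.676] of day 0, and the day 42 level rests on 17 UMIs. Hoxd11 stood at 52.8, 33.3 and 43.8 CPM and Hoxa13 at 45.4, 23.5 and 37.9 CPM, both lowest at day 7. Hoxc10 stood at 1.99, 10.4 and 7.30 CPM, on 13, 19 and 5 UMIs, and Hoxc8 at 4.59, 9.29 and 13.1 CPM, on 30, 17 and 9 UMIs. The neutrophil list in this cluster was at 6 CPM at day 0, 2731 CPM at day 7 and 433 CPM at day 42. The keratinocyte list, whose cells are high in Hoxc8, was at 952, 1591 and 4270 CPM, and the part of either list in these values was not tested.

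Hox proteins bind DNA with TALE cofactors, among them the Meis family, and these had a keratinocyte lean of their own. At each day 3 of the 6 TALE genes tested were higher in keratinocytes than in colonocytes and none was lower, with a median log2 ratio of 0.85 at day 0, where 7.18%, 10.2% and 6.62% of all genes were higher at the 3 days. Meis2 was at 232 against 13.4 CPM and Meis1 at 116 against 7.45 CPM at day 0. Among other transcription factors of body region, Cdx1 (174 against 1.68 CPM) and Gata6 (69.8 against 19.9 CPM), factors of the intestine, were higher in colonocytes, although keratinocyte cluster 8 alone had Gata6 at 77.95 CPM at day 0. Pitx1, a factor of the hindlimb and hind body, was higher in keratinocytes, at 192 against 12.1 CPM. Within keratinocytes Pitx1 was at 251, 350 and 245 CPM in clusters 1, 3 and 5 and at 121 and 33.0 CPM in clusters 9 and 17, so that clusters 1, 3 and 5 lay above clusters 9 and 17 for Pitx1 as for Hoxd11.

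The genes whose levels ran most like each member over the 60 clusters and days were named by Pearson r among 8564 genes, as a description of units that share libraries. Hoxc6 and Hoxc9 ran most like Hoxc8 (0.911 and 0.905). The candidates had at least 50 CPM somewhere, which Hoxc6, Hoxc9 and Hoxd10 did not, and Wnt3 (0.822) and Capns2 (0.808) were among the 3 that ran most like Hoxc8. Hoxb13 ran most like Smim22 (0.945) and Smim6 (0.927), Hoxa13 like Pde3a (0.931), and Hoxd10 like Magi3 (0.818). Hoxd11 and Hoxd13 were each other's most alike gene, and Mgat3 (0.843) was next for Hoxd11 and Mcu (0.867) for Hoxd13. Between members of different kinds the values were low, as for Hoxc8 and Hoxb13 (-0.368).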

How the data were processed

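Single-cell 3' RNA libraries were made from trypsin-digested tissue depleted of dead cells, on the 10x Chromium platform, per the labels. Cell Ranger 3.0.2 and the build mm10 are named in the submitters' processing notes. The deposited table holds raw counts, in whole numbers, for each gene in each cell. Size factors in the authors' cell table are a ratio of a cell's total to a constant (5283.43) and entered no comparison. The authors' map coordinates, a score with no unit per the file headers, were not used. Clusters and cell type names are the authors' own, and how they were made, and whether the authors removed doublets, is not given in the sources used here.

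Counts of a gene were summed over the cells of a class or cluster and library and divided by all counts of those cells. A difference was a log2 ratio with 10 CPM added to both sides, and a log2 ratio of at least 1 or at most -1 was past the fold. The background was the share of genes with at least 5 CPM on either side that were past the same fold. Clusters with at least 50 cells were compared, a floor of 3 counts was used for a count of 0, and shares of cells were also taken with each cell thinned to 1000 counts. With 1 library per day, depth sets counting error only.

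The members, gene lists and clusters were chosen with earlier results of these data known. All 9 members were named, other Hox genes and Hox noncoding RNAs where they reached 20 CPM (at most 12 by level), at most 4 cofactors and 4 other factors by level, the 3 genes most alike to a member and the 3 leading genes of a cluster. Hoxd4, whose symbol stands on 2 rows, was not used, and some genes that these rules select are not reported here. GENCODE M21 held 30934 (99.6%) of the identifiers and gave the coordinates, though it is not known to be the authors' annotation. Promoter sequences came from RefSeq (GRCm38.p6), in which 4 of the 9 members matched.

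Scrublet by its default threshold called 436 cells (3.95%) doublets in the untreated library, none at day 7 and 292 (2.50%) at day 42, so the 5% of cells with the highest scores were left out as an alternative instead. The other alternatives were a filter on cells (1000 counts, 500 genes, at most 20% mitochondrial), 2 other scalings, a pseudocount of 1 CPM, averaging CPM over cells, thinned cells, equal weight to clusters, a background over all genes and sums without the 10 cells with most counts of the gene. Added after seeing the data were leaving out shared barcodes, and repeats of the cell-level and within-cluster counts, the latter also over clusters above immune cells. The summing, intervals and fold calls were tested on simulated data. The software was scanpy 1.11.5, scipy 1.17.1, pandas 2.3.3, numpy 2.4.6 and matplotlib 3.10.9 under Python 3.11.15.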

Additional observations from a re-analysis of the deposited data

Results flagged for a closer look

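For 7 members the level relative to day 0 lay above 1 in 1 cell class and below 1 in another, with counting intervals on opposite sides of 1. The difference between classes was not tested, since each day has 1 library. The interval of each ratio rests on at least 20 UMIs.

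Hoxc8 at day 7 was at 2.02 times its day 0 level in fibroblasts, 0.430 in keratinocytes and 0.316 in colonocytes. At day 42 the same gene was at 2.86, 0.254 and 0.352. The keratinocyte marker list in the fibroblast cluster was at 952, 1591 and 4270 CPM at days 0, 7 and 42, and its part in these values was not tested. Hoxc9 at day 7 was at 2.90 in fibroblasts and 0.444 in keratinocytes, and Hoxc10 at 5.22 and 0.397. These fibroblast values rest on at most 30 UMIs in a library. The colonocyte levels of Hoxc8 rest on 5 and 7 UMIs at days 7 and 42. They and the keratinocyte levels of Hoxc10 (0.353 CPM at day 0 and 0.140 at day 7) lay within the intervals of immune cells. Their ratios are not read as changes in expression.

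Hoxb13 at day 7 was at 1.89 in keratinocytes and 0.8498 in colonocytes. Hoxd11 at day 7 was at 1.16 in colonocytes, 0.830 in keratinocytes and 0.632 in fibroblasts, and Hoxd10 at 1.37 in colonocytes and 0.758 in keratinocytes. In colonocyte cluster 2 alone Hoxd11 was at 0.973 [0.873 to 1.08] and Hoxd10 at 0.892 [0.708 to 1.12] at day 7, with intervals that hold 1. Hoxd13 at day 42 was at 1.72 in keratinocytes, 0.737 in colonocytes and 0.417 in fibroblasts. Within keratinocyte clusters Hoxd13 at day 42 was lower than at day 0 in 5 of 6 (median ratio 0.833), and in 3 of the 3 clusters above the interval of immune cells on either day (median 0.729). The mix of keratinocyte clusters differed by day too. Clusters 1, 3 and 5 were 24.1%, 29.97% and 77.4% of the cells at days 0, 7 and 42. The part of this mix in the keratinocyte ratios was not tested.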

How the results depend on the processing

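No paired analysis was possible because the days compared have 1 library each, and for the same reason no replicate could be left out. Of 163 counts of members past the fold under an alternative, 139 stayed within 1.5 times the value given and 24 did not. A pseudocount of 1 CPM gave 10 of these 24. With it, members higher in keratinocytes than in colonocytes numbered 3 at day 0 and also at day 7, 2 at day 42, and 5 were lower at day 42. It also gave 5 members higher and 4 lower in fibroblasts than in keratinocytes at day 0, and over time 1 and 4 members past the fold in keratinocytes and 3 and 3 in fibroblasts at days 7 and 42. Members higher in keratinocytes at day 42 numbered 1 with totals free of mitochondrial and ribosomal protein genes, with the mean of CPM per cell, with thinned cells and with equal weight to clusters. In keratinocytes 1 member was past the fold at day 7 with those totals, and at day 42 it was 1 with thinned cells and 0 with equal weight to clusters. In fibroblasts 1 member was past the fold at day 7 with thinned cells, and at day 42 it was 1 with size factors, those totals, the mean per cell, thinned cells or without the 10 cells with most UMIs, and 2 without the highest Scrublet scores. Of 1241 other values 910 moved by less than their interval, 330 by more, and 1 reversed, Hoxc8 in keratinocytes at day 42, from -1.25 to 0.040 with equal weight to clusters. Members with few UMIs, Hoxc10 above all, and fibroblasts at day 42 are limited by depth, and variation between mice could not be measured.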

Other observations

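The other Hox genes of the table added cell types with a set of their own. Hoxc13, a gene known from hair and nail, stood at 85.2, 68.3 and 124 CPM in keratinocyte cluster 17 at days 0, 7 and 42, the cluster led by Cxcl14, Postn and Tchh, and at no more than 4.2 CPM in the other keratinocyte clusters of at least 50 cells. Hoxa9 was highest in keratinocyte cluster 13, at 191, 147 and 165 CPM, against 42.9 CPM in cluster 1 at day 0, and cluster 13 held 12612 CPM of the sebaceous marker list. This cluster had little of any member, with Hoxb13 at 7.60 CPM and Hoxc8 at 1.27 CPM at day 0. Hoxa10 was at 61.8 CPM in fibroblasts and 86.4 CPM in muscle-like cells at day 0, and Hoxa11 at 34.4 CPM in fibroblasts.

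Hoxb9 was at 151 CPM in enteroendocrine cells at day 0, where Hoxb13 was also highest, and at 60.7 CPM in colonocyte cluster 7 and 27.0 CPM in cluster 2. Hoxa5 (45.7 CPM) and the noncoding Hoxaas3 (35.2 CPM) reached their highest levels in enteroendocrine cells as well. Hoxd9 (127 CPM) and Hoxd8 (113 CPM) at day 0, Hoxa7 (114 CPM) and Hoxb7 (47.0 CPM) at day 7 and Hoxb4 (29.4 CPM) at day 0 were highest in lymphatic cells. The noncoding Hotairm1 was highest in keratinocyte cluster 9 at day 42, at 27.1 CPM, and Hoxd3os1 in lymphatic cells at day 7, at 21.6 CPM. Each of these is the highest of many clusters, with 1 library per day and no test.

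A cluster without a cell type name (14) held both kinds of member at day 0, with Hoxc8 at 39.4 CPM, Hoxc6 at 28.1 CPM and Hoxd11 at 43.6 CPM, and it had the highest Meis1, at 381 CPM, of the clusters of at least 50 cells.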
